A study of Homo sapiens with 14 samples.

Results

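The 10 genes described here encode the SEC61 protein channel of the endoplasmic reticulum (ER), the translocon-associated protein (TRAP) complex beside it, and their partners SEC62, SEC63 and TRAM1. They were taken by gene name, and all 10 were listed in both deposited tables, which hold 11261 genes for a small interfering RNA (siRNA) experiment and 11835 for an enhancer deletion. SSR1 was chosen because it was low after CALCRL siRNA. Its value there is therefore a description with no test, and the other 9 were named for their place in the same machinery.

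The 14 RNA libraries were made from teloHAEC, an aortic endothelial line of human origin that telomerase has immortalised, so all 4 groups share 1 line. Cells of the siRNA arm were reverse transfected with siRNA against CALCRL, the calcitonin receptor-like receptor gene (4 libraries), or with scrambled siRNA (4 libraries), and lysed at 24 hours. Cells of the deletion arm were electroporated with Cas9 complexes whose guides flank an enhancer that the series title gives as controlling CALCRL (3 libraries), or with a control guide against HPRT (3 libraries), and RNA was taken 2 days later. Both groups of the deletion arm thus carried Cas9 and a guide that cuts, and both groups of the siRNA arm carried a transfected siRNA. Electroporated cells were collected without a stated selection, so each library is a population. The labels number the libraries of a group but do not call them separate cultures, and p-values measure the spread between these libraries, which may be technical.

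Proteins bound for secretion, the plasma membrane or the lysosome enter the ER while they are being made. The signal recognition particle (SRP) brings the ribosome to the membrane, and the chain passes through the SEC61 channel, which is built of an alpha, a beta and a gamma subunit. TRAP, made of the products of SSR1, SSR2, SSR3 and SSR4, sits next to the channel and helps chains whose signal peptides open it poorly. SEC62 and SEC63 help other chains across, SEC63 by recruiting the lumenal chaperone BiP, and TRAM1 lies beside the channel near entering signal peptides. Endothelial cells depend on this route for von Willebrand factor, matrix proteins and surface receptors.

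No value for a single library was used, because the files give, for each gene and arm, only 1 mean normalised count, the log2 fold change of treated over control libraries, the standard error (SE) of that change, and a p-value adjusted over all genes. The group means below were worked out from that mean and fold change, and each arm was normalised on its own, so levels are compared only within an arm. Calls below are adjusted p-values under 0.05 in the authors' DESeq2 Wald test. In RNA from whole cultures, fewer cells of a kind and less RNA per cell cannot be told apart. The mean normalised counts summed to 4547165 over the genes of the siRNA table and 5153709 over those of the deletion table, and the depth of single libraries is unknown. CALCRL was at 34.0% of its control after siRNA (95% interval 27.1% to 42.7%) and at 36.2% after the deletion (20.2% to 64.7%). Of 10 endothelial markers 9 were listed in both tables, among them CDH5, TIE1 and ROBO4, with PECAM1 not analysed here, against 2 of 4 smooth muscle, 0 of 4 fibroblast and 0 of 1 leukocyte markers. The listed endothelial markers had summed mean counts of 7920 (siRNA) and 7470 (deletion), and the smooth muscle markers of 407 and 213. Of the endothelial markers, VWF, the von Willebrand factor gene (42.0 and 18.7), and EMCN (64.4 and 9.78) had low mean counts. Both lay below the smooth muscle marker ACTA2 (225 and 182). Among the endothelial markers CDH5 (-1.44, adjusted p-value 0.00142) and KDR (-1.05, adjusted p-value 0.00966) were lower after the deletion, by the authors' deposited table, where 15.8% of all genes were called in either direction. The other 7 were not called and lay between -0.49 (TEK) and 0.59 (ENG) in the authors' deposited table. The part of CDH5 and KDR in the results on that arm was not tested.

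The sequences around 1 word of 7 bases are shown first, because SSR1 and SEC62 carry the word in the 3′ untranslated region (UTR) of their mRNA and differed in the siRNA arm. The word was picked in earlier work on these data for the low siRNA values of genes that carry it, so it is no independent evidence. Capitals mark the word, the sequences are from GENCODE release 29 transcripts on GRCh38, and each is the strand of the mRNA. In SSR1 the site lies at chr6:7289669-7289698 on the minus strand, and the word starts 182 bases after the stop codon. In SEC62 it lies at chr3:169993588-169993617 on the plus strand, and the word starts 541 bases after it. CALCRL carries the word once in its coding sequence, at chr2:187363422-187363451 on the minus strand, and not in the 3′ UTR.
SSR1: cattcatttttctaaaGTAACAAatttggt
SEC62: ggaaacaagccaactaGTAACAAtgcagca
CALCRL: tgtttgtaactctgttGTAACAAtcattca

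SSR1, the alpha subunit of TRAP (ENSG00000124783; minus strand of chromosome 6, 7268306 to 7347446 in GRCh38), was the member that stood apart after CALCRL siRNA. Its implied mean was 1152 normalised counts with scrambled siRNA and 410 with CALCRL siRNA. By the authors' deposited table that is -1.49 on the log2 scale (SE 0.09), or 35.6% of its control (95% interval 31.3% to 40.5%). SSR1 had the lowest Wald statistic of the 11261 genes, and its rank by log2 fold change was 4, after PPFIBP2 (-1.65), SERTAD4 (-1.64) and CALCRL (-1.56) in the authors' deposited table. Since SSR1 was chosen for this value, the rank says only how it was chosen.

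The other TRAP genes were close to their control levels in the same libraries. SSR2, the beta subunit (chromosome 1, 156009048 to 156020959, minus strand), had implied means of 1094 and 1110 for scrambled and CALCRL siRNA. SSR3, the gamma subunit (chromosome 3, 156540140 to 156555184, minus strand), had 4491 and 4101, and SSR4, the delta subunit (chromosome X, 153793516 to 153798505, plus strand), had 819 and 734. The authors' deposited table lists log2 values of 0.02 (SE 0.10) for SSR2, -0.13 (SE 0.15) for SSR3 and -0.16 (SE 0.10) for SSR4. Their 95% intervals, as a percent of the scrambled control, ran from 88.7% to 116%, from 74.7% to 112% and from 78.5% to 102%.

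The channel and its partners were likewise near control in fold change after siRNA. SEC61A1, which forms the pore (chromosome 3, 128051641 to 128071683, plus strand), had implied means of 680 and 683, SEC61B, the beta subunit, 1111 and 1060, and SEC61G, the gamma subunit, 774 and 681. The log2 values in the authors' deposited table were 0.01 (SE 0.10), -0.07 (SE 0.20) and -0.19 (SE 0.42). SEC61G had an interval from 49.8% to 155% of the control, the widest of the 10. Implied means were 1258 and 1349 for SEC62, 656 and 662 for SEC63 (chromosome 6, 107867756 to 107958189, minus strand), and 791 and 774 for TRAM1. The authors' deposited table puts SEC62 at 0.10 (SE 0.11), SEC63 at 0.01 (SE 0.08) and TRAM1 at -0.03 (SE 0.14). Of the 9 genes other than SSR1, 0 were called by the authors' DESeq2 test, and 0 had an unadjusted p-value under 0.05. Over all genes of the arm 3.46% were called, 2.42% lower and 1.05% higher. Since SSR1 was chosen in this comparison, nothing is read from the count. The intervals leave room for changes whose size differs by gene. The lower ends for SSR2, SEC61A1, SEC62 and SEC63 were between 87.4% and 92.6% of the control. Those for SSR3, SSR4, SEC61B, SEC61G and TRAM1 were between 49.8% and 80.3%, so larger falls are not excluded for these genes.

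**Figure D1:**
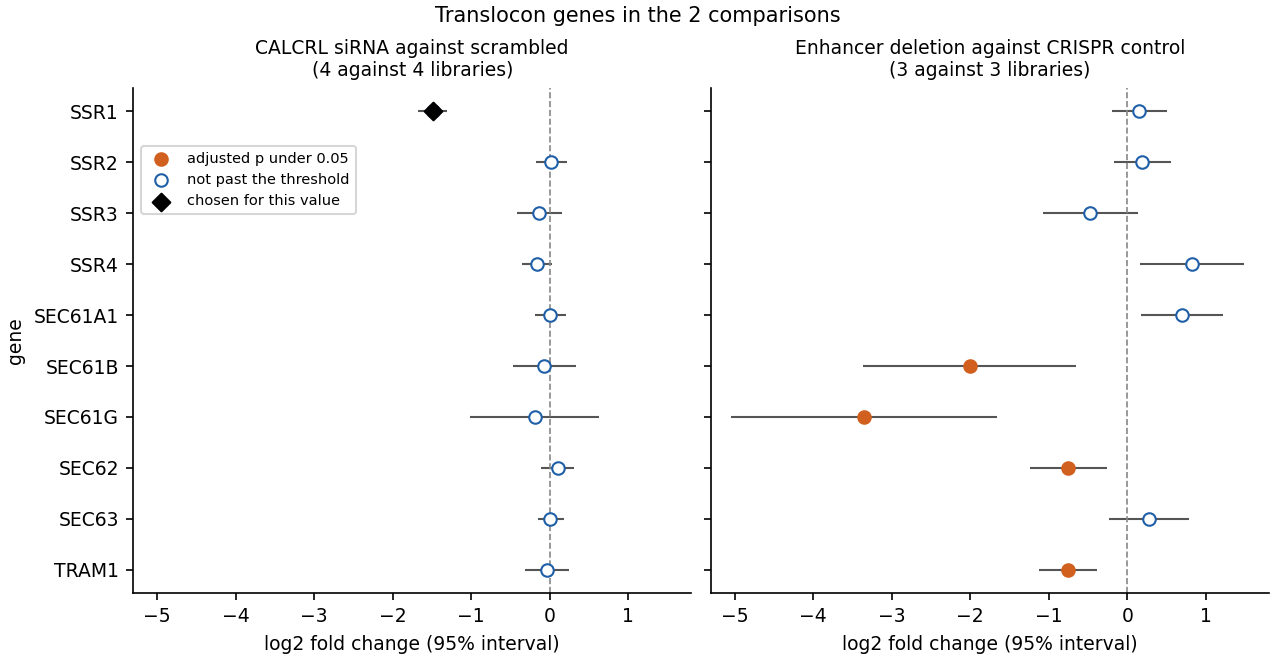
Log2 fold change of each of the 10 genes (points) with its 95% interval (bars) after CALCRL siRNA against scrambled siRNA (left) and after enhancer deletion against CRISPR control (right). After siRNA SSR1, the diamond, chosen for that value, lies at -1.49 and the intervals of the other 9 genes include 0; after the deletion SEC61B, SEC61G, SEC62 and TRAM1, filled, are past the threshold on the low side.

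After the enhancer deletion the picture differed by gene. SEC61G, SEC61B, TRAM1 and SEC62 fell, SSR1 did not pass the test, and the 2 highest members, SSR4 and SEC61A1, were just short of it. Of the 10 genes 4 were called, against the 15.8% of all genes tested. All 4 were lower, where 8.44% of all genes were, and 0 were higher, where 7.40% were. The authors' DESeq2 test gave 6 of the 10 an unadjusted p-value under 0.05, as it did 3513 of all 11830 genes tested, with SSR4 and SEC61A1 the 2 that were higher. The median log2 fold change of the 10 was -0.16, against 0.00 over all genes. SEs were larger than in the siRNA arm, with a median of 0.41 against 0.17 over all genes. These 4 calls rest on the normal reference: a Student t reference (4 degrees of freedom), or Wald statistics divided by their robust SD of 1.88, left 0 of the 10 called. Both settings also left 0 of all 11830 genes called, so this loss is not particular to the 10. At an unadjusted p-value under 0.05 these gave 4 and 2 of the 10, and 1646 and 534 of all genes.

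SEC61G (chromosome 7, 54752250 to 54759974, minus strand) changed most. Its implied mean was 762 normalised counts in the control group and 74.6 after the deletion. The authors' deposited table puts this at -3.35 (SE 0.87; adjusted p-value 0.00313) on the log2 scale, or 9.78% of its control (95% interval 3.02% to 31.7%). SEC61B (chromosome 9, 99222064 to 99230615, plus strand) had implied means of 1762 in the control group and 440 after the deletion. The authors' deposited table gave it -2.0 (SE 0.69), adjusted p-value 0.0311, or 25.0% of control (9.77% to 63.8%). Both are small tail-anchored proteins of the channel, and their intervals overlap, so their order is not resolved.

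SEC61A1, the pore subunit of the same channel, pointed the other way, with implied means of 401 and 649. The authors' deposited table has it at 0.70 (SE 0.27), short of the threshold (adjusted p-value 0.0556), with an interval from 113% to 233% of the control. When p-values were adjusted only over genes whose mean count reached 50, SEC61A1 passed, with an adjusted p-value of 0.0445. Its interval did not overlap those of SEC61B and SEC61G. The 3 genes of the channel thus lay on both sides of 0 in this arm.

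SEC62 (chromosome 3, 169966635 to 169998373, plus strand) had implied means of 1677 in the control group and 995.5 after the deletion. On the log2 scale the authors' deposited table gives -0.75 (SE 0.25; adjusted p-value 0.0253), or 59.3% of its control (42.2% to 83.4%). TRAM1 (chromosome 8, 70573442 to 70608387, minus strand) had implied means of 1049 and 622. TRAM1 stands at -0.75 (SE 0.19; adjusted p-value 0.00213) there too, by the authors' deposited table, or 59.3% of its control (45.9% to 76.6%). SEC63, the partner of SEC62, had implied means of 699 and 845 and did not pass, listed by the authors' deposited table at 0.27 (SE 0.26; adjusted p-value 0.513). Its interval, from 84.8% to 172% of the control, lay above that of SEC62.

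TRAP gave no call after the deletion. SSR1 had implied means of 1056 and 1172, which the authors' deposited table gives as 0.15 (SE 0.18; adjusted p-value 0.612), and 7687 of the 11835 genes had a larger absolute Wald statistic. Its interval ran from 87.2% to 141% of the control. SSR2 had implied means of 1081 and 1231, or 0.19 (SE 0.18; adjusted p-value 0.529) by the authors' deposited table. SSR3 had 4809 and 3461, or -0.47 (SE 0.31; adjusted p-value 0.297) by the authors' deposited table. SSR4, with implied means of 714 and 1258, was the highest member: the authors' deposited table lists 0.82 (SE 0.34), and the adjusted p-value of 0.0765 missed the threshold.

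**Figure D2:**
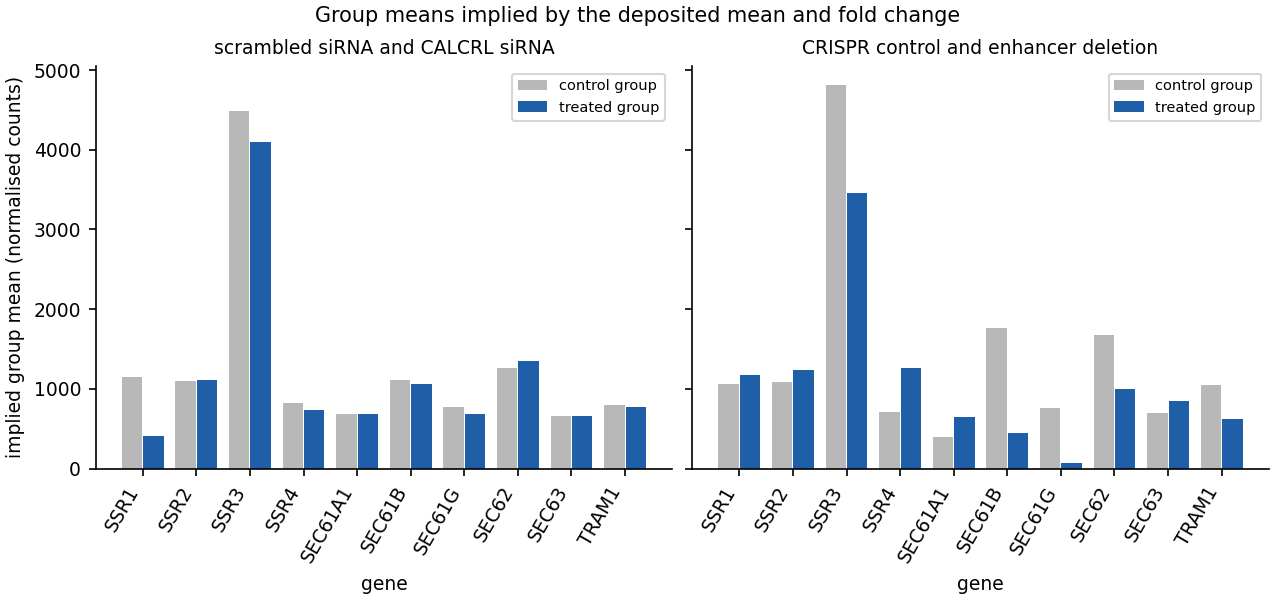
Group means in normalised counts implied by the deposited mean and fold change, control group in grey and treated group in blue, for the siRNA arm (left) and the deletion arm (right); no error is drawn because no value per library is held. SSR1 goes from 1152 to 410 in the left panel, and SEC61B and SEC61G have the lowest treated bars relative to their controls in the right panel; heights are not compared between genes or panels.

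The SE of the fold change also set SEC61G and SEC61B apart. In the siRNA arm, where neither was called, the SE of SEC61G was 3.94 times the SE expected at its mean count from a smooth curve over all genes, and that of SEC61B 1.98 times. The ratios of the other 8 members were between 0.789 and 1.51. In the deletion arm the ratios were 3.07 for SEC61G and 2.84 for SEC61B. Among the 10891 genes tested in both arms, 214 had a siRNA ratio over 2, and 67.3% of those were called lower after the deletion, against 7.75% of the other genes. SEC61G is among the 214 and SEC61B lies just under the limit. Without SEC61G, 3 members were called lower. The part of this spread in the fall of both genes was not tested.

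SEC62 and TRAM1 share a base composition that moved with the fold change over all genes of the deletion arm. The last 500 bases of their transcripts held 32.2% and 30.8% G and C, in the second lowest of 10 groups of genes, whose median log2 fold change was -0.22. SEC61A1 and SSR4, the 2 highest members, were in the highest groups, at 60.4% and 57.2%, where the medians were 0.62 and 0.41. With the trend removed, SEC62 was at -0.52 and TRAM1 at -0.49, neither past the threshold (adjusted p-values 0.159 and 0.0632), and SEC61A1 and SSR4 were at 0.14 and 0.37. SEC61G and SEC61B kept their calls, at -3.22 and -2.09, and SSR1 was at 0.36. SEC63, with 31.8% G and C in the same group as SEC62 and TRAM1, was at 0.51 with the trend removed.

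**Figure D3:**
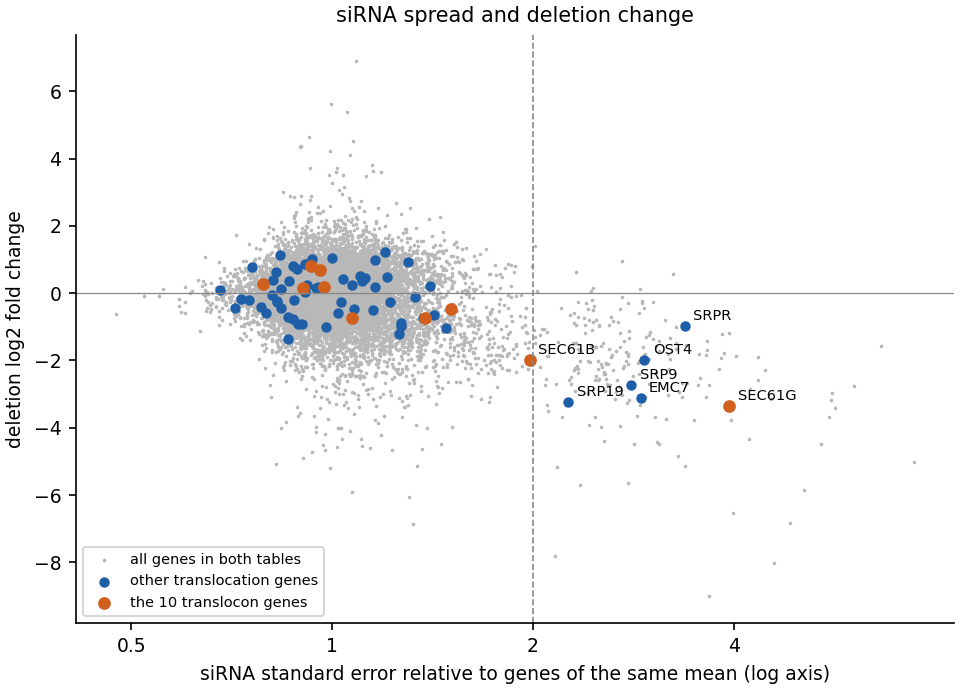
Deletion log2 fold change (y axis) against the siRNA SE of each gene relative to genes of the same mean count (x axis, log scale), with all genes in grey, 60 other genes of ER protein entry in blue and the 10 translocon genes in orange; the dashed line marks a ratio of 2. SEC61G lies to the right of the line with SRP9, SRP19, SRPR, OST4 and EMC7, all 6 between -3.35 and -0.98, and SEC61B lies at 1.98.

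The arms, which share no control libraries, were set against each other for the 9 genes other than SSR1. The difference, siRNA minus deletion, was computed from the log2 fold changes and their SEs with a normal test adjusted over 10891 genes. It passed for 4 of the 9, where 13.7% of all genes passed; 3 were higher after siRNA, where 7.22% of all genes were, and 1 lower, where 6.49% were. SEC61G differed by 3.17 (SE 0.96, adjusted p-value 0.0155), SEC62 by 0.85 (SE 0.27, 0.0215) and TRAM1 by 0.72 (SE 0.24, 0.0255), the last value in each case being the adjusted p-value, and each was lower after the deletion. SSR4 differed by -0.97 (SE 0.35, 0.0432) and was higher after the deletion. SEC61B, at 1.93 (SE 0.72), had an adjusted p-value of 0.0515, and SEC61A1, at -0.69 (SE 0.29), one of 0.0847. For SSR2, SSR3 and SEC63 the 95% intervals of the difference ran from -0.58 to 0.24, from -0.32 to 1.01 and from -0.80 to 0.28. With the difference statistics divided by their robust SD, 0 of the 9 differences passed, and 0 of all 10891 genes did. In that setting 0 of the 9 had an unadjusted p-value under 0.05, and 447 of all genes did. For SSR1 the log2 fold changes stand side by side without a test, -1.49 after siRNA and 0.15 after the deletion.

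The word of 7 bases was held in the 3′ UTR of 2 of the 10 genes, SSR1 and SEC62, and of 10.3% of the 10634 siRNA-table genes with an annotated 3′ UTR. As background, the seed of an siRNA guide, a few bases near its 5′ end, can pair with the 3′ UTR of transcripts other than the target and lower them. The guide sequences were not used here. The word was picked for low siRNA values in these same data, so its siRNA values below are a description only. Among genes with no copy the siRNA log2 fold change had a median of 0.01, and 1.16% were called lower. With 1 copy these were -0.11 and 12.1%, and with 2 or more -0.21 and 27.7%. After the deletion, genes with a copy had a median of -0.14 and those without 0.01, so carriers lay lower in that arm too. These medians are not corrected for the GC trend of that arm. Over all genes its group medians ran from -0.26 at the lowest G and C to 0.62 at the highest. The part of base composition in the carrier medians was not tested. There, 9.27% of carriers and 8.95% of the others were called lower, and 3.39% and 8.27% were called higher. SSR1 had the lowest siRNA value of the 1092 genes with a copy, although it has only 1. PPFIBP2 (-1.65) and SERTAD4 (-1.64), which lay lower than SSR1 in the authors' deposited table, hold no copy in the 3′ UTR. SEC62 has 1 copy as well and was at 107% of its control, with an interval from 92.6% to 124%. In SSR1 the next base after the word is A and in SEC62 it is T, as the printed sequences show. Among genes with 1 copy, the 370 with A next had a median of -0.20, with 20.0% called lower, and the 574 others had -0.08, with 6.97% called lower. Single genes of the pathway varied. With A next, CCDC47 (1 copy) was called at -0.54 in the authors' deposited table. DNAJC10 (1 copy) at 0.08 and SRP19 (2 copies) at -0.07 were not called. The interval of SRP19 was wide, from -0.74 to 0.61. With 1 copy not followed by A, STT3B was called at -0.38 in the authors' deposited table. RPN2 (-0.12), TMEM258 (0.04) and PDIA3 (0.14), also with 1 such copy, were not called. DNAJC3, with 3 copies, was at 0.13 and was not called. The last 6 bases of the word alone occur in the 3′ UTR of SEC63 too, which was at 0.01. The annotated 3′ UTR of SSR1, 8721 bases, is the longest of the 10 genes. Whether the word has a part in the level of SSR1 was not tested.

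**Figure D4:**
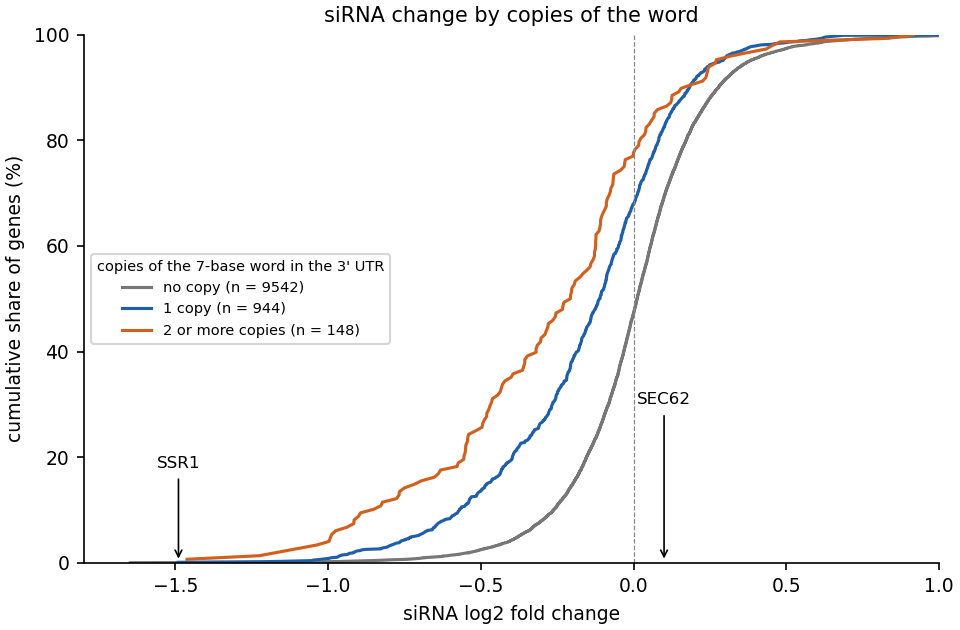
Cumulative share of genes (y axis, percent) by siRNA log2 fold change (x axis, shown to 1) for genes with no copy, 1 copy, or 2 or more copies of the 7-base word in the annotated 3′ UTR; arrows give SSR1 and SEC62. Below 0 the curves with more copies lie further left, SSR1 is at the far left end at -1.49, and SEC62, also with 1 copy, is at 0.10. The word was picked for low siRNA values in these data, so the order of the curves is a description only.

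The genes whose pair of log2 fold changes lay nearest to that of SSR1 were found among 8484 genes with a mean of at least 8 per 1000000 of the table sum in both arms. The measure is the straight-line distance over 2 comparisons, so it is a coarse one. UBE2V2 was nearest, which the authors' deposited tables put at -1.26 (SE 0.09) for siRNA and 0.03 (SE 0.20) for the deletion. PRKAA2 (-1.23 and -0.13), ZCCHC9 (-1.46 and 0.54), FAM46A (-1.16 and 0.54) and RHOBTB3 (-0.97 and 0.19) followed in the authors' deposited tables. All but UBE2V2 hold the word in the 3′ UTR, with 2 copies in PRKAA2, 2 in ZCCHC9, 3 in FAM46A and 1 in RHOBTB3. The word is in 10.3% of the siRNA-table genes with an annotated 3′ UTR. Both the word and these genes were picked through low siRNA values, so nothing is read from this count. None of the 9 other translocon genes was among the 5.

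The promoters of the translocon genes were searched because ER stress raises many genes of this machinery through known elements. TGACGTG, the core of the element bound by XBP1, was searched on both strands in RefSeq windows of GRCh38.p14 from 250 bases before to 50 after each start. It was found for 4 of the 9 genes that have a window (13 windows in all), against 2.40% of gene symbols and 1.97% of all 35116 windows. The motif was picked after the values were known. Windows of 30 bases around each are given on the gene's strand, with the motif or its reverse complement in capitals, at chr3:128052425-128052454 (plus) for SEC61A1, chr3:169966780-169966809 (plus) for SEC62, chr3:156554147-156554176 (minus, a secondary start) for SSR3 and chrX:153794529-153794558 (plus) for SSR4.
SEC61A1: cgggctagcacTGACGTGtctctcggcgga
SEC62: cctcctcgctcCACGTCAgagggaaccggg
SSR3: ctgataacagcCACGTCAgcaaggaaacta
SSR4: cagggaggggcCACGTCAgtgctgccagag
These 4 did not share a direction after the deletion, where SEC62 fell, SSR3 was at -0.47, and SEC61A1 and SSR4 were at 0.70 and 0.82 without passing. After siRNA all 4 were between -0.16 and 0.10. The longer ER stress response element, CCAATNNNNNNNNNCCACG, was found for 0 of the 9 genes and in 0.0769% of windows. CCAAT alone, the first 5 bases of that element, was found for 6 of the 9 genes, against 39.7% of gene symbols. These were SSR1, SSR2, SSR3, SSR4, SEC61B and SEC61G. HSPA5, which encodes BiP and is a textbook target of the longer element, was past the threshold in neither arm: the authors' deposited tables list -0.12 (SE 0.08) for siRNA and 0.36 (SE 0.18) for the deletion. After the deletion the authors' DESeq2 test gave 7 of 13 ER chaperone genes an unadjusted p-value under 0.05, as it did 3513 of all 11830 genes. Of these chaperone genes DNAJB9, DNAJB11, DNAJC3 and PDIA6 were below 0, and HSPA5, SIL1 and CANX were above it.

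The rest of the route into the ER was followed with 65 further genes, of which 60 were listed and 5 (KRTCAP2, TUSC3, GET4, NOMO2 and NOMO3) were not analysed here. After siRNA 2 of the 60 were called, both lower, a share near the 2.42% of all genes called lower: STT3B, a catalytic subunit of the oligosaccharyltransferase that glycosylates entering chains (-0.38, SE 0.08, adjusted p-value 0.000185), and CCDC47, a partner of the channel for multipass proteins (-0.54, SE 0.14, adjusted p-value 0.0063), by the authors' deposited table. Both carry the word once in the 3′ UTR. The 6 other carriers among the 60, RPN2, TMEM258, SRP19, DNAJC3, DNAJC10 and PDIA3, were not called, with values from -0.12 to 0.14. With a Student t reference neither passed, where only 5 of all 11261 genes did. By that reference 3 of the 60 had an unadjusted p-value under 0.05, as did 774 of all genes. STT3B was at 77.0% and CCDC47 at 68.9% of their controls, against 35.6% for SSR1.

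After the deletion 7 of the 60 fell, where 8.44% of all genes did, and 6 rose, where 7.40% did, with a median log2 fold change of -0.18, so the counts are near the background. As for the members, a t reference or division by the robust SD left 0 calls among the 60, and 0 over all genes. At an unadjusted p-value under 0.05 these settings gave 12 and 7 of the 60, and 1646 and 534 of all 11830 genes. Of 8 genes of SRP and its receptor 2 fell, SRP9 (-2.73, SE 0.48) and SRP19 (-3.23, SE 0.55), in the authors' deposited table. Both encode small proteins of the particle. Of 10 oligosaccharyltransferase genes 2 fell, OST4 (-1.98, SE 0.32) and OSTC (-0.93, SE 0.34), in the authors' deposited table. The 5 signal peptidase genes, whose products cut off the signal peptide, gave 0 calls by the authors' DESeq2 test, with 1 at an unadjusted p-value under 0.05 and a median of -0.66. The ER membrane protein complex, which inserts other membrane segments, split: EMC7 (-3.12, SE 0.50) and EMC1 (-0.92, SE 0.33) fell and EMC3 (1.03, SE 0.27) and EMC10 (1.23, SE 0.38) rose among its 10 genes in the authors' deposited table. In the pathway for tail-anchored proteins, the class to which SEC61B and SEC61G belong, WRB (-1.20, SE 0.36), a receptor subunit, fell and BAG6 (0.79, SE 0.18) and SGTA (1.13, SE 0.34), which hand over the new proteins, rose in the authors' deposited table. TMEM147 (1.01, SE 0.22), a partner of the channel, and CANX (0.63, SE 0.22), the lectin chaperone calnexin, also rose there, the latter alone among 13 chaperone genes. With the GC trend removed 9 of the 60 were called, 5 of them lower, against 1405 of all 11621 genes, 806 of them lower. SGTA was then at 0.39, BAG6 at 0.32, EMC10 at 0.77 and TMEM147 at 0.64, all smaller than before. EMC3 was at 1.1 and CANX at 0.81, both larger than before. The paralogues SEC61A2 (-1.0, SE 0.97) and TRAM2 (-0.73, SE 0.39) were not called in the authors' deposited table.

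SRP9, SRP19, OST4 and EMC7 stood beside SEC61B and SEC61G in level after the deletion, at 15.0%, 10.7%, 25.4% and 11.5% of the control. Each of these had a siRNA SE ratio over 2, as did SRPR (-0.98, SE 0.45, not called, in the authors' deposited table). Of the 6 genes past that ratio among the 70 listed, 5 were called lower and 0 higher after the deletion, and of the other 64, 6 were called lower and 6 higher.

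**Figure D5:**
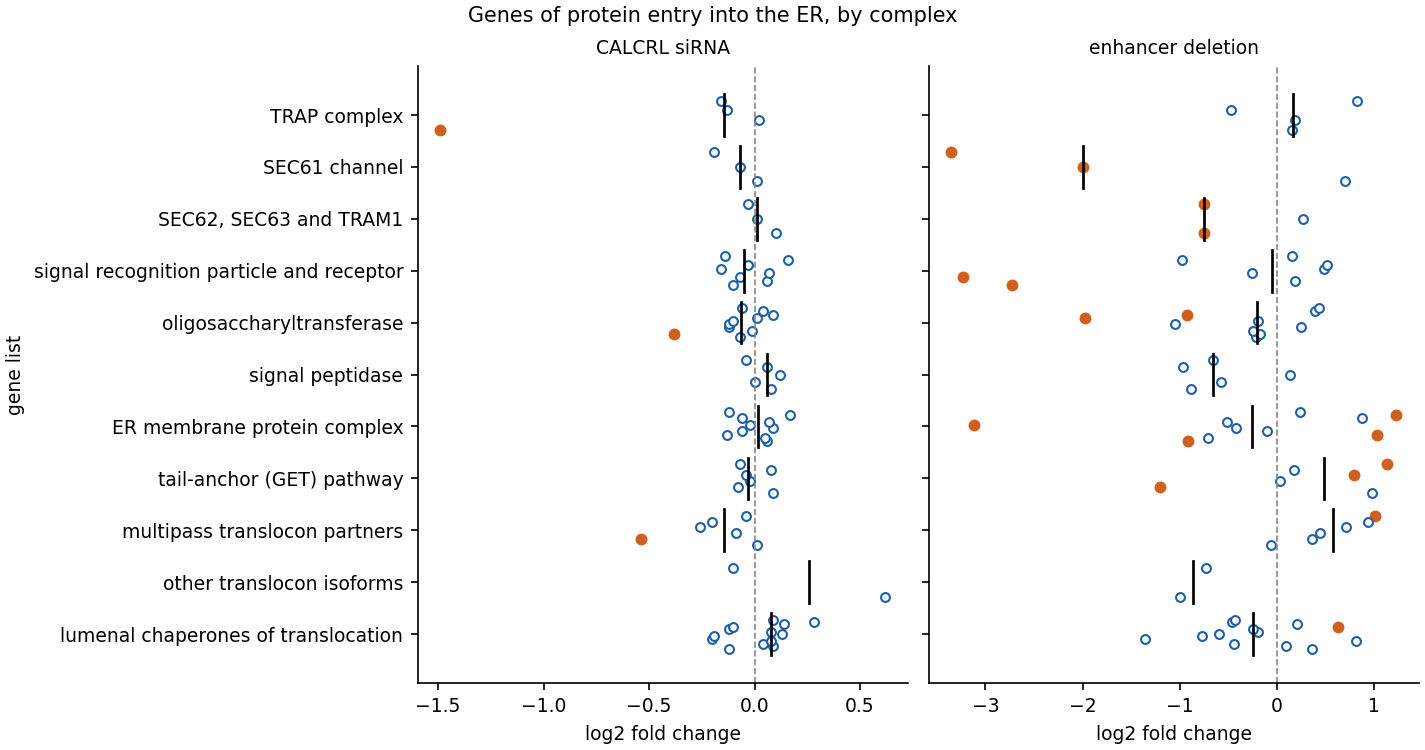
Log2 fold change of each listed gene (points) by complex, after siRNA (left) and after the deletion (right), filled where the adjusted p-value is under 0.05, with each list's median as a bar. The left panel holds SSR1, chosen for its value, far to the left of 2 other filled points (CCDC47 and STT3B), and the right panel holds 11 filled points below 0 and 6 above it; the x axes differ in range.

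Counting of some members is uncertain, because the strand setting was not given in the sources used here. GENCODE places 5 genes over the span of SSR1, among them CAGE1 and AL139095.1 to AL139095.3 on its own strand, which a strand setting would not separate; none of the 5 was listed in the tables. GENCODE places IDH3G opposite SSR4, and MGLL and RUVBL1 opposite SEC61A1, and all of these were listed in the tables, so reads of an overlapping pair could not be told apart without strand. Pseudogenes are named after SSR1 (2), SEC63 (2) and SSR4 (1), and 0 of these 5 were listed. In the authors' hg19 counting, reads shared with such copies could have been dropped or split.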

How the data were processed

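RNA of 14 teloHAEC libraries was read near the polyadenylated end (QuantSeq FWD, single-end, per the labels' protocols). The file names say that the authors used featureCounts, then DESeq2. Per gene, their deposited tables hold the mean normalised count, log2 fold change and SE, the Wald score, and both the raw and the adjusted p-value. The submitters' processing notes list hg19 and edgeR 3.24.3 without a role; aligner, annotation, filters and strand setting are not given in the sources used here. Deposited Wald statistics equalled fold change over SE, and adjusted p-values a Benjamini-Hochberg adjustment, so no shrinkage followed the test.

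From these, 95% intervals, group means (equal group sizes), the difference between arms, SE ratios (lowess of log SE on log mean, span 0.3) and a GC correction (lowess, last 500 bases) were computed with Python 3.11.15, scipy 1.17.1 and statsmodels 0.14.6. GENCODE 29 gave positions and 3′ UTRs (the transcript with the longest), matched by gene ID for 11095 and 11626 genes. The text names the 10 members, listed pathway genes called in either arm, CALCRL and the 5 genes most like SSR1; others were chosen after values were seen. Members and lists were chosen with earlier results of these data known. Alternatives were a Student t reference, division by the robust SD, centring, a mean of at least 50, GC correction and word length.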

Additional observations from a re-analysis of the deposited data

Results flagged for a closer look

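The effect of the 2 treatments differed, by a direct test of the difference adjusted over 10891 genes, for 4 members. The siRNA minus deletion difference in log2 fold change was 3.17 for SEC61G, 0.85 for SEC62, 0.72 for TRAM1 and -0.97 for SSR4. Over all genes 13.7% differed by the same test. With the difference statistics divided by their robust SD, 0 of the 9 members tested and 0 of all genes passed. With the GC trend removed from both arms SEC61G kept its difference (adjusted p-value 0.023), SEC61B gained one (0.048), and SEC62 (0.109), TRAM1 (0.174) and SSR4 (0.32) no longer passed. The arms differ in agent, delivery, time and control, and these cannot be told apart. SSR1 was left out of this test because its siRNA value chose it.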

How the results depend on the processing

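No paired analysis was possible because single libraries have no values of their own here, so replicate blocks and leaving out libraries were not run. In the deletion arm a t reference (4 degrees of freedom) left 0 members and 0 other translocation genes called (4 and 12 at an unadjusted p-value under 0.05), and 0 of all genes against 1874. Dividing the statistics by their robust SD also left 0, 0 and 0 (2 and 7 unadjusted). Removing the GC trend left 2 members, SEC61B and SEC61G, and 9 other translocation genes (5 lower) against 13 (7 lower). It left 1405 of all genes against 1874. For the difference between arms the robust SD left 0 of 9 members (0 unadjusted) and 0 of all genes against 1493. GC removal left 2 of 9, and 1204 of all genes. In the siRNA arm a t reference (6 degrees of freedom) left 0 of the other translocation genes (3 unadjusted) and 5 of all genes against 390; SSR1 was at -1.494 with the median of all genes subtracted and at -1.480 with GC removed; the other alternatives cannot move a fold change. The word followed by A (8 bases) was in 1 member. Signs changed with GC removal for SEC61A1 after siRNA (-0.011) and for SSR2 after the deletion (-0.084) and in the difference (0.084), none past the threshold. The unknown depth of single libraries limits all values; wide intervals, as for SEC61G, mean that the size of a fall is poorly known.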
